A study of Mus musculus with 4 samples.

Results

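The 10 genes described here encode AMPA receptor subunits and proteins that associate with them: the pore subunits Gria1, Gria2, Gria3 and Gria4, the transmembrane AMPA receptor regulatory proteins (TARPs) Cacng2, Cacng3 and Cacng8, the Shisa family members Shisa6 and Shisa9, and Prrt1. They were taken by symbol from the 32285 genes of the deposited tables, and each symbol matched 1 row. RNA of single nuclei was counted in the hippocampi of 2 wild-type (WT) mice and 2 Cyfip2+/R87C knock-in (KI) mice, with 1 library per mouse. KI mice carry 1 copy of the R87C change of Cyfip2, and the controls carry no altered allele. The mice were littermates on a C57BL/6N background, 28 postnatal weeks old per the study's methods, and both hemispheres of a mouse were dissected and frozen together. The study follows this line as a model of West syndrome, an infantile epilepsy, and the change is in the germ line, so that every cell class carries it. The treatment label of KI replicate 2 reads R88C, while its genotype label and protocol place it with the KI mice, and it was kept there. With 2 mice per genotype, an exact permutation test of a single value cannot go below p = 0.333, so the tests below come from a model fitted across all genes.

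AMPA receptors are the glutamate-gated channels that carry most of the fast excitatory current between neurons. A receptor is an assembly of GluA subunits, which Gria1 to Gria4 encode, and the GluA2 subunit, once its RNA has been edited, keeps calcium from passing through the pore. TARPs, Shisa proteins (also called CKAMPs) and Prrt1 (also called SynDIG4) bind the receptors in the membrane and alter their gating, their number at the surface or their place at the synapse. In the hippocampus, Cacng8 is known as the prominent TARP, and Shisa9 as an auxiliary protein of dentate gyrus granule neurons.

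All 10 genes lie at separate loci of GRCm38 (GENCODE M21). Gria1 (chr11:57011387-57330244) and Shisa6 (chr11:66211725-66525964) share a chromosome with Cyfip2 (chr11:46193850-46312859), at distances of 10.7 and 19.9 Mb from it. Prrt1 (chr17:34629533-34633126) spans 3.59 kb, while the other genes span 25.0 to 378.3 kb. Cacng2, Cacng8 and Shisa6 each overlap 1 counted gene on the opposite strand, and no source used here states how strand entered the counting. The stretch just before the start of Prrt1 is shown because Prrt1 was the member that fell in the most cell classes, and that of Gria4 because Gria4 was the member most concentrated in inhibitory neurons. Both come from RefSeq (GRCm38.p6), are written 5′ to 3′ on the strand of the gene (plus for Prrt1, minus for Gria4), and cover chr17:34629314-34629532 and chr9:4796235-4796484.
Prrt1: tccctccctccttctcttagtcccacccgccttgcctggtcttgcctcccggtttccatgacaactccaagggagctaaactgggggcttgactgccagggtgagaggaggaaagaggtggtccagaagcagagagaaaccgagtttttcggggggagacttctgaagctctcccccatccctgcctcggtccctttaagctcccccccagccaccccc
Gria4: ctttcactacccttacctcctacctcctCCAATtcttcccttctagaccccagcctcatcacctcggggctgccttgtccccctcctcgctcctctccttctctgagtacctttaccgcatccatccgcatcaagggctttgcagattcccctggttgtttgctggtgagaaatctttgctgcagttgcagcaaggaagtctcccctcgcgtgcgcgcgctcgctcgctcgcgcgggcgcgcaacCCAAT
Capitals mark the letters CCAAT, searched on both strands and present in 33.8% of 32851 promoter windows of 250 bases. Neither stretch held the cyclic AMP response element TGACGTCA (1.55% of windows) or its shorter form TGACG (17.8%), which overlaps it, nor the GC box GGGCGG (32.7%), the E box CACGTG (6.02%), the letters TATAAA (12.4%) or the AP-1 letters TGANTCA (6.75%). GC content was 60.3% for Prrt1 over 219 bases and 58.8% for Gria4, beside a median of 52.4% over all windows. The last 31 bases of the Prrt1 window, from the annotated start of the gene on, were left out because they lie in an annotated exon.

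The 4 libraries held 55640 barcodes with 73009975 to 80913580 UMIs (unique molecular identifiers, each a counted transcript) per library, and 52033 nuclei were kept. Nuclei were clustered without the members, and 11 classes were named from marker genes, of which 8 were compared between genotypes: DG granule neurons (12402 nuclei), CA1 pyramidal neurons (8366), CA3 pyramidal neurons (3709), inhibitory neurons (4118), astrocytes (1628), oligodendrocytes (6279), oligodendrocyte precursor cells (OPC, 1090) and microglia (1048). Of the markers fixed for a class, 4 of 7 were raised in CA3 and 5 of 7 in CA1 pyramidal neurons, 6 of 7 in DG granule neurons and all in the other 5 classes, and 7350 nuclei (14.1%) stayed unnamed. KI replicate 2 stood apart, with 24.9% of its nuclei unnamed beside 9.59%, 10.6% and 11.9% in WT replicate 1, WT replicate 2 and KI replicate 1. The CA1 class joined 2 clusters, of 7611 and 755 nuclei. The smaller one raised 3 of the 7 CA1 markers, and also 3 of the 12 markers of subicular or cortical excitatory neurons. WT replicate 1 gave 50 of its nuclei, WT replicate 2 gave 244, KI replicate 1 gave 138 and KI replicate 2 gave 323. At 2 times the clustering resolution, a cluster of 1478 nuclei was named subicular or cortical. Its leading genes, Npsr1 and Gm42953, also led the smaller CA1 cluster. Values of CA1 that rest on the smaller cluster are therefore also given for the larger one. Levels are in CPM, the UMIs of a gene scaled to a common total of all UMIs of a class in a library. Malat1, a nuclear RNA, took 8.71% to 8.89% of UMIs in the WT libraries and 12.1% to 13.7% in the KI libraries, and 268 kept barcodes were present in more than 1 library. Cyfip2, the altered gene, gave 182 and 180.5 CPM in the WT libraries, and the KI libraries gave 172 and 171 CPM over all nuclei (log2 fold change -0.03, SE 0.08, adjusted p = 0.852), and a 3′ count does not tell the alleles apart.

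The levels of the pore subunits differed among cell classes, and these levels are given as a description, since classes were defined from the same nuclei. Gria1 was highest among the 8 main classes in CA1 pyramidal neurons, where WT mice had 3244 and 2906 CPM and KI mice 2978 and 2703 CPM. Its smaller cluster held 363 to 745 CPM. Inhibitory neurons (2601 to 3076 CPM over the 4 libraries), CA3 pyramidal neurons (2551 to 2817) and DG granule neurons (1845 to 2933) followed, each overlapping its neighbour in the order. Gria1 was lowest in OPC, at 269 to 547 CPM. Gria2 was highest in CA3 (2676 to 3209 CPM) and CA1 pyramidal neurons (2442 to 2984 CPM), whose ranges overlapped. Inhibitory neurons held 1244 to 1446 CPM of Gria2, below every library of the other neuronal classes, and oligodendrocytes held the least, at 852 to 1019 CPM. Gria3 reached 737 to 977 CPM in CA1 pyramidal neurons and stayed at 158 to 261 CPM in astrocytes.

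Gria4 stood out in inhibitory neurons. WT mice had 1760 and 1700 CPM there, KI mice 1714 and 1703 CPM, and no library of any other class came above 1023 CPM, the value of Cajal-Retzius cells in KI replicate 1. OPC followed with 691 to 884 CPM, whereas DG granule neurons held 140.1 to 272 CPM and astrocytes 74.0 to 79.2 CPM. Among inhibitory subtypes, Gria4 averaged 2174 CPM in Pvalb neurons (2030 to 2312 over libraries) and 2016 CPM in Sst neurons (1748 to 2155), and 920.2 CPM in Vip neurons (851.9 to 979.3). Gria3 followed the same subtypes, with 1075 to 1544 CPM in Pvalb and 1117 to 1461 CPM in Sst neurons beside 172.5 to 220.2 CPM in Vip neurons. Gria1 was at 3514 to 4827 CPM in Sst neurons and 711.5 to 977.1 CPM in Vip neurons.

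Taken as a share of the UMIs of all 4 subunits, Gria4 made up 24.1% to 26.0% in inhibitory neurons and 2.68% to 4.24% in CA1 pyramidal neurons. Gria2 made up 18.4% to 21.6% in inhibitory neurons, 38.8% to 42.3% in CA1 pyramidal neurons and 60.6% to 70.7% in astrocytes. These shares compare a subunit between classes, not subunits with each other, because 3′ counts depend on the transcript. In OPC the WT libraries had Gria2 shares of 50.9% and 52.6% and the KI libraries 60.6% and 61.6%. Nuclei of the smaller CA1 cluster held 762 to 874 CPM of Gria4, those of the larger one 127 to 236 CPM.

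**Figure D1:**
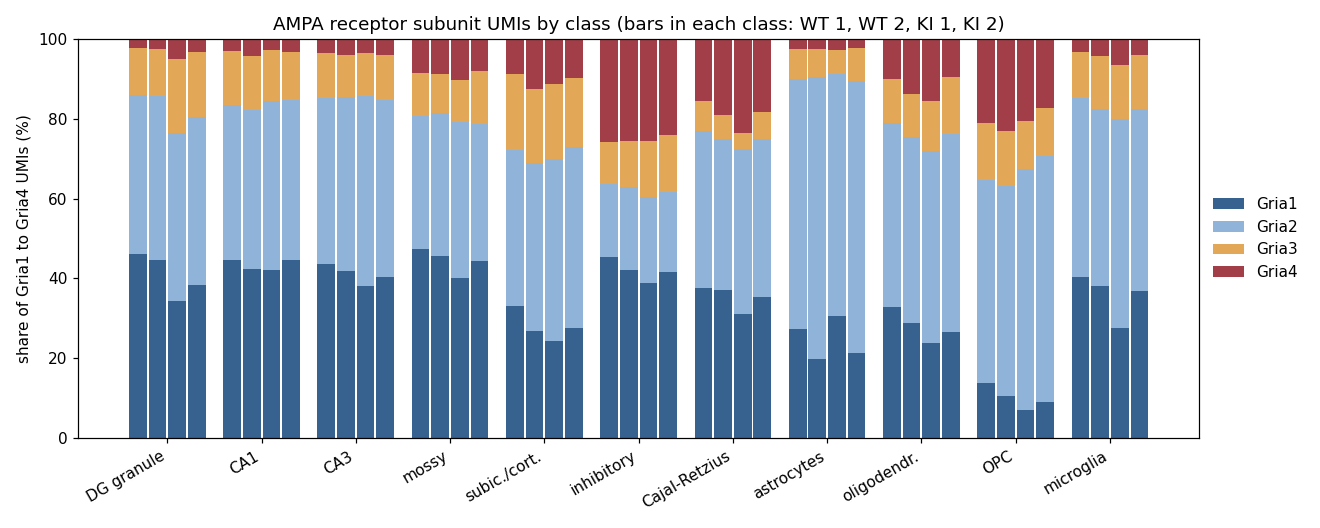
Share of Gria1, Gria2, Gria3 and Gria4 UMIs (y axis, percent of their sum) in each of 11 named classes, with 1 bar per library in the order WT 1, WT 2, KI 1, KI 2. The Gria4 share is 24.1% to 26.0% in inhibitory neurons, and the Gria1 share of DG granule neurons is 44.6% to 46.2% in WT and 34.3% to 38.3% in KI.

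The auxiliary subunits also had class patterns of their own. Cacng2, the founding TARP, was highest in inhibitory neurons (80.8 to 140.3 CPM) and the small class of mossy cells (83.0 to 147 CPM), and was at 22.7 to 34.8 CPM in CA1 pyramidal neurons. Cacng3 was at 70.4 to 119 CPM in DG granule neurons and 13.96 to 34.7 CPM in CA3 pyramidal neurons. Cacng8 was at 120.2 to 190.2 CPM in CA1 pyramidal neurons, with overlapping values of 87.4 to 199.7 CPM in DG granule and 95.5 to 160.3 CPM in CA3 pyramidal neurons. In WT alone, CA3 pyramidal neurons (154 to 160.3 CPM) lay below DG granule (187 to 199.7) and CA1 pyramidal neurons (181 to 190.2). Shisa6 was ordered without overlap from mossy cells (1398 to 1765 CPM) over CA3 (1145 to 1289) and CA1 pyramidal neurons (633 to 746) to DG granule neurons (569 to 618). Shisa9 had its highest mean in DG granule neurons, with 703 and 716 CPM for the WT mice and 299 and 416 CPM for the KI mice, and was at 51.1 to 97.9 CPM in CA3 pyramidal neurons.

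Prrt1, which differed between genotypes, was ordered in WT alone. DG granule neurons held the most, at 88.5 to 91.5 CPM in the WT libraries, and oligodendrocytes (84.1 to 86.5), CA1 pyramidal neurons (73.7 to 76.3) and astrocytes (59.3 to 68.0) followed without overlap. Inhibitory neurons (32.6 to 35.2 CPM) and OPC (29.1 to 31.0 CPM) held the least, and 4 of the 10 pairs of neighbours in the order of 11 classes overlapped. Microglia served as a gauge of the level that free RNA in the droplets can give, though the part of free RNA in their own level was not tested. Per nucleus in WT, they held 2.99 and 2.05 UMIs of Gria1 and 0.602 and 0.397 of Shisa9. Oligodendrocytes, at similar median depths (1417 and 1487 UMIs, against 1381 and 1342), held 1.17 and 0.954 of Gria1 and 0.142 and 0.121 of Shisa9. Only of Prrt1 and Gria4 did oligodendrocytes in WT hold more than microglia. Over the 4 libraries microglia held a mean of 42.0 CPM of Prrt1, 1161 CPM of Gria1 and 1470 CPM of Gria2, beside 137.5 CPM of Gria4 and 70.2 CPM of Cacng8. Since nuclei of microglia had median depths of 1230 to 1381 UMIs and those of CA3 pyramidal neurons 7188 to 8947.5, Prrt1 was also taken per nucleus, where CA3 pyramidal neurons held 0.225 to 0.571 UMIs and microglia 0.0260 to 0.109 UMIs. Shisa9 per nucleus was at 0.899 and 1.13 UMIs in WT nuclei of CA1 and 0.735 and 0.941 in those of CA3, beside 0.602 and 0.397 in microglia, and the part of free RNA in its level outside DG granule neurons was not tested. Oligodendrocytes held 0.140 and 0.138 UMIs of Prrt1 per nucleus in WT and 0.0581 and 0.0629 in KI. Microglia held 0.100 and 0.109 in WT and 0.0260 and 0.0854 in KI, less than oligodendrocytes in all libraries but KI replicate 2. Inhibitory neurons held 0.199 and 0.214 UMIs in WT and 0.0816 and 0.0972 in KI. Within a library this was 1.98 (WT replicate 1), 1.96 (WT replicate 2), 3.14 (KI replicate 1) and 1.14 (KI replicate 2) times the value of microglia. As a share of UMIs, inhibitory neurons in WT, at 32.6 to 35.2 CPM, were below the 51.3 to 59.5 CPM of microglia. The part of free RNA in the Prrt1 levels of oligodendrocytes and inhibitory neurons was not tested.

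**Figure D2:**
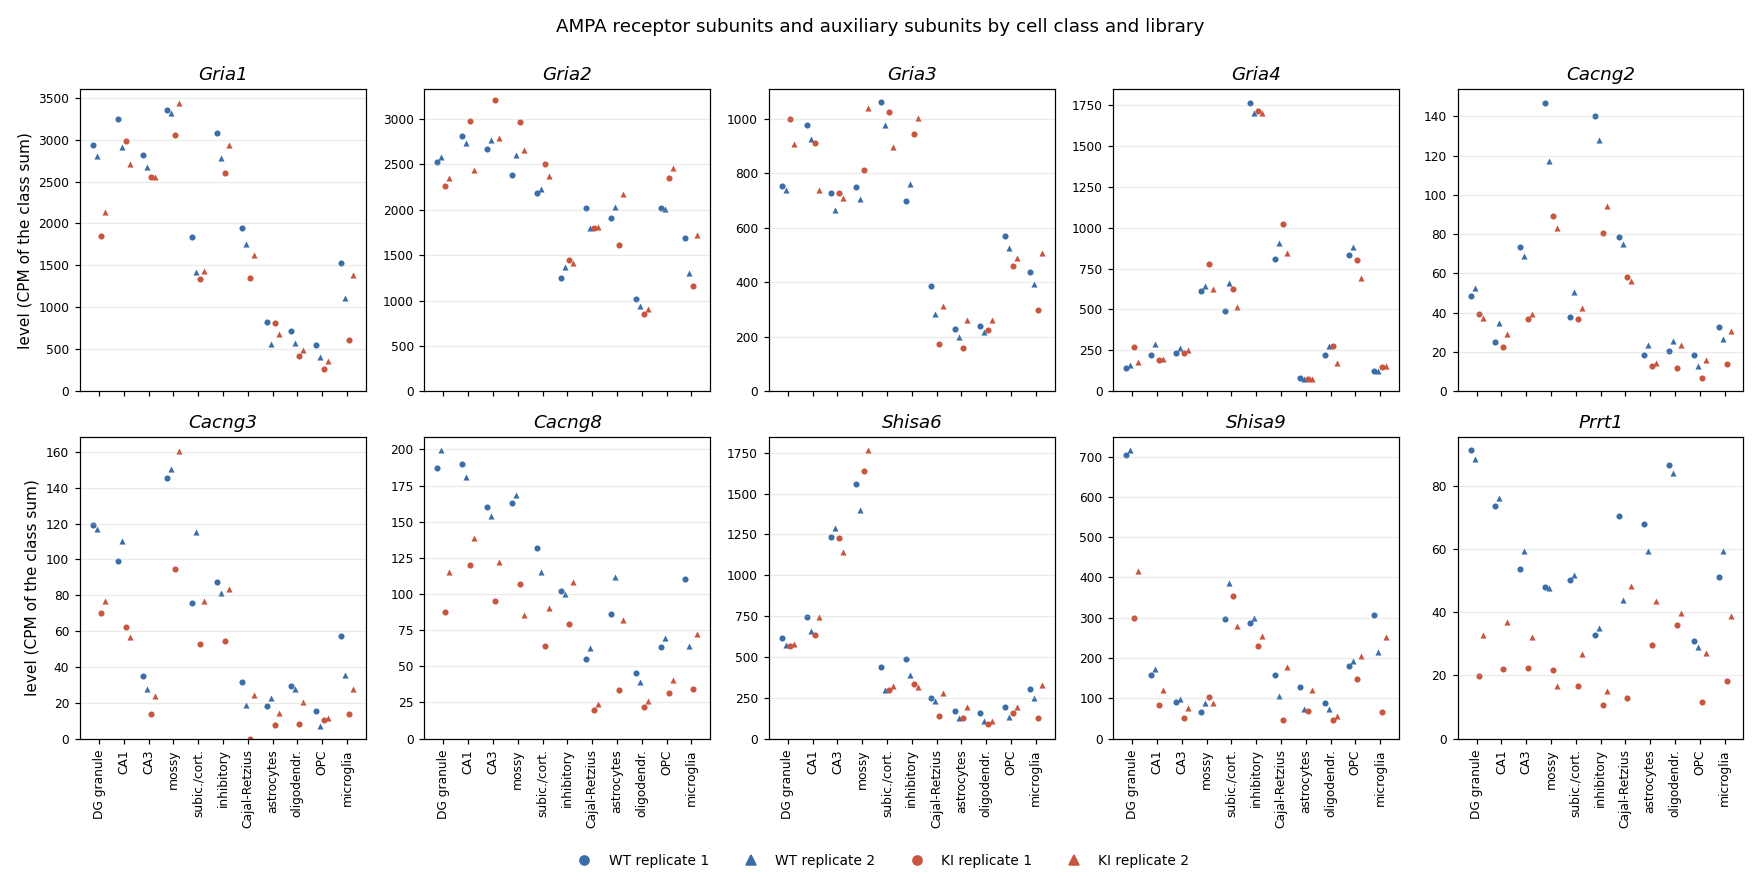
Level of each gene (y axis, CPM of the class sum, linear and starting at 0) in 11 named classes, with 1 point per library (blue WT, red KI, circle replicate 1, triangle replicate 2). Gria4 stands highest in inhibitory neurons, at 1700 to 1760 CPM, and Shisa6 in mossy cells and CA3 pyramidal neurons, and both Prrt1 points of KI lie under both of WT in all classes but Cajal-Retzius cells.

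Genes with the most similar pattern over the 11 classes were looked up among 10412 genes, by the correlation of log2(CPM + 1), which the shared libraries and free RNA also shape. For Gria3 the nearest was Grm5, a metabotropic glutamate receptor (Pearson r = 0.986), and for Shisa9 it was Lrrtm4, a synaptic adhesion protein (r = 0.916). For Prrt1 they were Spef2 (r = 0.900), Nrgn (r = 0.895), which binds calmodulin at synapses, and Cfap298 (r = 0.872). The nearest genes of Cacng8 and Shisa6, Gm44151 (r = 0.982) and Gm12296 (r = 0.988), are those that overlap them on the opposite strand. For Gria1 they were Gm11817, Gm14443 and Syt1, a calcium sensor of synaptic vesicles (r = 0.952 to 0.955). For Gria2 they were Apba2, Agap2 and Pxdn (r = 0.901 to 0.919), and for Gria4 Ddx25, Lmbr1 and Kctd8 (r = 0.910 to 0.928). For Cacng2 they were Scrt1, Tcte2 and Slc4a3 (r = 0.907 to 0.926), and for Cacng3 Gm32014, Krt12 and Fam81a (r = 0.913 to 0.936). Between members, r was highest for Gria1 with Shisa6 (0.854) and lowest for Gria4 with Prrt1 (-0.805).

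To ask whether the genes differed between genotypes, UMIs were first summed over all nuclei of a library. Prrt1 was at 68.0 and 64.7 CPM in WT (66.3 ± 2.29, SD, n = 2) and at 19.8 and 28.6 CPM in KI (24.2 ± 6.22, SD, n = 2), so that KI held 36.4% of the WT level. The log2 fold change of Prrt1 was -1.41 ± 0.17 (SE). Prrt1 was chosen with its lower level in KI over all nuclei already known, so these values are a description. The classes below hold the same nuclei, so neither its values there nor the counts of called members that include it are independent of that choice. Of the 10 members 1 was called over all nuclei, Prrt1, where 0.889% of 21718 genes were called, and nothing is read from that count. Cacng8 (-0.66, adjusted p = 0.0643) and Shisa9 (-0.59, adjusted p = 0.0591) had negative log2 fold changes that did not pass, and Gria2 was close to 0 (0.01 ± 0.09 (SE)). The median log2 fold change of the members was -0.31, and that of all genes tested was 0.01. In a sum over all nuclei, fewer cells of a type and less RNA per cell cannot be told apart. The members called numbered 1 without WT replicate 1 or WT replicate 2, 3 without KI replicate 1 and 5 without KI replicate 2, where 0.513%, 1.01%, 4.92% and 32.4% of all genes were called in the same order of libraries.

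Prrt1 was then followed through the classes. DG granule neurons of the WT mice had 91.5 and 88.5 CPM, those of the KI mice 19.9 and 32.8 CPM. For CA1 pyramidal neurons the WT pair was 73.7 and 76.3 CPM, the KI pair 22.1 and 36.9 CPM, and for CA3 pyramidal neurons the pairs were 53.6 and 59.4 CPM (WT) and 22.4 and 32.1 CPM (KI). Inhibitory neurons had less, with a WT pair of 32.6 and 35.2 CPM and a KI pair of 10.5 and 15.0 CPM. The genotypes overlapped in none of these 4 classes, and Prrt1 fell in each: in DG (log2 fold change -1.65, SE 0.21, adjusted p = 0.00906), CA1 (log2 fold change -1.28, SE 0.19, adjusted p = 0.027), CA3 (log2 fold change -0.99, SE 0.17, adjusted p = 0.0276) and inhibitory neurons (log2 fold change -1.30, SE 0.19, adjusted p = 0.0229). Oligodendrocytes showed a fall too, 86.5 and 84.1 CPM for WT against 35.9 and 39.8 CPM for KI (log2 fold change -1.12, SE 0.18, adjusted p = 0.0258). In astrocytes (68.0 and 59.3 CPM in WT, 29.8 and 43.5 CPM in KI), OPC (31.0 and 29.1, 11.7 and 27.2) and microglia (51.3 and 59.5, 18.3 and 38.8), both KI values were also the lower ones, and these differences did not pass (log2 fold changes -0.74, -0.66 and -0.93, adjusted p = 0.357, 0.568 and 0.9). The microglial values, taken as a gauge of free RNA within the limit given above, lay on the same side as those of the neurons. Per nucleus, DG granule neurons held 0.380 and 0.407 UMIs of Prrt1 in WT and 0.0955 and 0.142 in KI, while microglia held 0.100 and 0.109 in WT and 0.0260 and 0.0854 in KI. The part of free RNA in the differences of glia and of inhibitory neurons was not tested. The Prrt1 call was lost in CA3 pyramidal neurons without WT replicate 2 (adjusted p = 0.0573), in inhibitory neurons under 2 other clusterings, and in oligodendrocytes without WT replicate 1 (0.0681) or WT replicate 2 (0.0750), and it held in DG granule and CA1 pyramidal neurons without any 1 library.

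**Figure D3:**
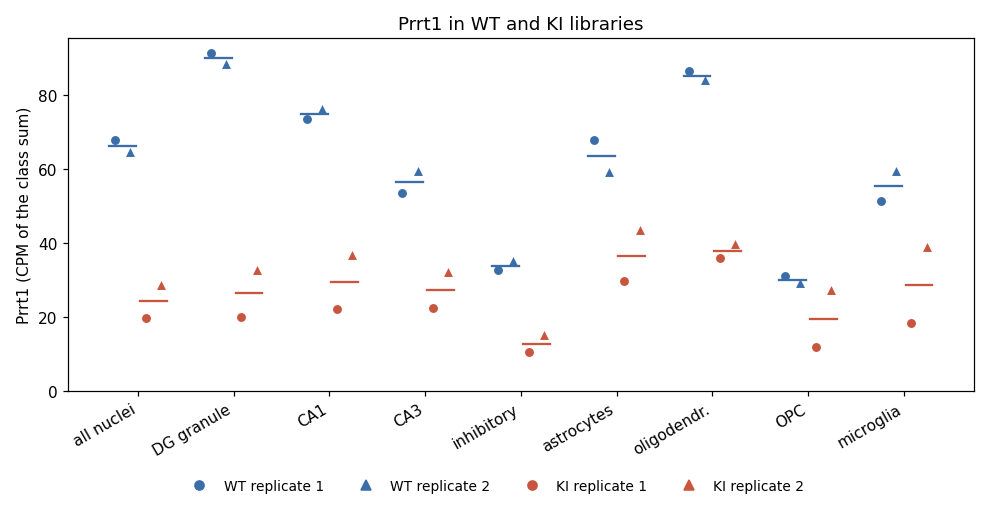
Prrt1 level (y axis, CPM of the class sum) over all nuclei and in the 8 compared classes, with 1 point per library and a line at the mean of each genotype. The WT libraries are at 88.5 and 91.5 CPM in DG granule neurons and the KI libraries at 19.9 and 32.8 CPM, and both KI points lie under both WT points in every column.

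The genes around Prrt1 were read as a description of the locus. The 4 named coding genes on each side are Rnf5, Agpat1, Egfl8 and Ppt2 before it and Fkbpl, Atf6b, Tnxb and C4b after it, and edgeR called 0 of the 8 over all nuclei (4 at an unadjusted p under 0.05, as 24.3% of all genes). Ppt2, a thioesterase gene whose end lies 1.02 kb from Prrt1, gave 18.7 and 19.4 CPM for WT, 13.1 and 16.5 CPM for KI (log2 fold change -0.32, SE 0.14, adjusted p = 0.226). In DG granule neurons 3 of the 8 passed, where 9.43% of all genes did, and Ppt2 (-0.27 ± 0.16 (SE), adjusted p = 0.308), Rnf5, Agpat1, Egfl8 and Fkbpl did not. There Tnxb, an extracellular matrix gene 37.4 kb away, fell to 4.98 and 8.43 CPM against 23.0 and 24.2 CPM in WT (log2 fold change -1.70, SE 0.23, adjusted p = 0.0107). Atf6b, a gene of the unfolded protein response, fell (log2 fold change -0.67, SE 0.15, adjusted p = 0.0484), and C4b, a complement gene, rose to 9.63 and 6.07 CPM against 2.06 and 0.65 CPM in WT (log2 fold change 2.64, SE 0.50, adjusted p = 0.0277). Without WT replicate 2 none of the 3 passed (adjusted p = 0.0642 for Tnxb, 0.463 for Atf6b and 0.0961 for C4b), and without WT replicate 1 C4b alone did.

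DG granule neurons had the most differences. Of the 10 genes tested there, 6 passed, against 9.43% of 16402 genes, and 5 of them fell, against 4.77% of genes that were called lower. Among pore subunits, Gria1 fell, with a WT pair of 2933 and 2810 CPM and a KI pair of 1845 and 2133 CPM (log2 fold change -0.40, SE 0.08, adjusted p = 0.0312). Gria3 rose, to 997 and 907 CPM where the WT libraries had 752 and 739 CPM (log2 fold change 0.49, SE 0.09, adjusted p = 0.0298). Neither gene overlapped between genotypes. Gria2 gave 2528 and 2585 CPM for WT, 2262 and 2351 CPM for KI, which after scaling left a log2 fold change of -0.01 ± 0.07 (SE). Gria4 had 140.1 and 161 CPM (WT) and 272 and 179 CPM (KI), with a log2 fold change of 0.73 ± 0.22 (SE) that did not pass (adjusted p = 0.0871).

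Of the 3 TARPs, 2 fell in DG granule neurons. Cacng8 gave 187 and 199.7 CPM for the WT mice, 87.4 and 115 CPM for the KI mice (log2 fold change -0.80, SE 0.13, adjusted p = 0.0177). Cacng3 gave 119 and 117 CPM for WT, 70.4 and 76.6 CPM for KI (log2 fold change -0.55, SE 0.09, adjusted p = 0.0207). Shisa9, with the levels given above, also fell (log2 fold change -0.86, SE 0.14, adjusted p = 0.0175), the steepest fall of the called members after Prrt1. Cacng2 (-0.26 ± 0.12 (SE)) and Shisa6 (0.08 ± 0.08 (SE)) did not pass. The median over the 10 genes was -0.33 beside 0.00 over all genes. Of the genes called in this class, 49.4% were higher in KI, and 33.7% without TMM scaling, which scales libraries by a trimmed mean of log ratios between them. Without it the median of all genes in this class moved to -0.13, and the Gria3 call was lost (log2 fold change 0.35, adjusted p = 0.0504). Without WT replicate 1 or WT replicate 2 the calls were lost for all but Prrt1, and no direction changed. In fits without any 1 library the log2 fold changes stayed at -2.01 to -1.36 for Prrt1, -1.08 to -0.67 for Shisa9 and -0.98 to -0.64 for Cacng8. Those of Cacng3 stayed at -0.58 to -0.52, of Gria1 at -0.47 to -0.33 and of Gria3 at 0.38 to 0.59. Such a fit takes its spread from the genotype left with 2 libraries. The log2 difference between 2 libraries had an SD over genes of 0.3475 for the KI pair and 0.1295 for the WT pair.

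The DG class joined 2 clusters that separated by genotype, and the members were not used to form them. These are cluster sizes, not a test of composition. Of the first cluster, 4193 and 3197 nuclei came from the WT mice, 263 and 765 from the KI mice. Of the second, 141 and 119 nuclei came from the WT mice, 2239 and 1485 from the KI mice. In the first, Gria1 had WT values of 2976 and 2852 CPM and KI values of 2758 and 2579 CPM. In the second its WT values were 1736 and 1730 CPM and its KI values 1745 and 1913 CPM. Gria1 was thus lower in the second cluster in every library. Within the first cluster both KI libraries were below both WT libraries, and within the second neither was. For Gria3 the first cluster had 752 and 739.5 CPM (WT) and 876 and 938 CPM (KI), and the second 736 and 731 CPM (WT) and 1010 and 891 CPM (KI), so that KI was the higher genotype within both. For Cacng3, WT values of 119 and 117 CPM stood against KI values of 42.8 and 62.8 CPM in the first and 116 and 116 CPM against 73.4 and 83.5 CPM in the second.

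Cacng8 and Prrt1 were lower in the second cluster in every library and lower in KI within each cluster, whereas Shisa9 was lower in the second cluster in the WT libraries only. Cacng8 had WT values of 189.9 and 202 CPM and KI values of 117 and 145 CPM in the first cluster, and 120.5 and 134 CPM (WT) and 84.1 and 101 CPM (KI) in the second. Shisa9 had 712 and 727 CPM (WT) and 273 and 412 CPM (KI) in the first, and 450.2 and 434 CPM (WT) and 301 and 418 CPM (KI) in the second. Prrt1 had 93.0 and 90.8 CPM (WT) and 25.2 and 44.7 CPM (KI) in the first, and 50.7 and 28.1 CPM (WT) and 19.3 and 26.9 CPM (KI) in the second, where the WT values rest on 32 and 16 UMIs. For Prrt1 in the second, the nearest values of the genotypes were 28.1 and 26.9 CPM. Of the 6 markers of OPC, whose sum in DG granule neurons was 68.8 and 77.7 CPM in WT mice against 222.5 and 157.1 CPM in KI mice, Lhfpl3 made up 27.8 and 35.0 CPM and 164.4 and 106.0 CPM, Pdgfra stayed at 4.56 to 6.15 CPM, and the part of such RNA in the differences was not tested. The sum of these markers was also higher in KI in CA1 pyramidal neurons, 133.4 and 132.8 CPM where WT had 70.5 and 90.0 CPM, in CA3 pyramidal neurons (187.5 and 149.5 CPM in KI, 100.9 and 113.2 in WT) and in oligodendrocytes (151.1 and 140.6 CPM in KI, 99.7 and 84.6 in WT). Sums of other markers also moved: the 7 astrocyte markers in DG granule neurons (71.5 and 66.7 CPM in WT, 38.4 and 47.6 in KI), and the DG granule markers in CA1 (229.2 and 177.1 CPM, 124.9 and 163.5) and CA3 pyramidal neurons (162.7 and 174.7 CPM, 110.5 and 147.3). In inhibitory neurons the CA3 markers went from 1093 and 1076 to 874 and 918 CPM and the OPC markers went from 326 and 332 to 383 and 408 CPM. In oligodendrocytes the DG granule markers went from 2524 and 2701 to 2341 and 1769 CPM and the CA3 markers from 1197 and 1217 to 1720.0 and 2060.3 CPM. The part of this RNA in the differences of the members in these classes was not tested.

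**Figure D4:**
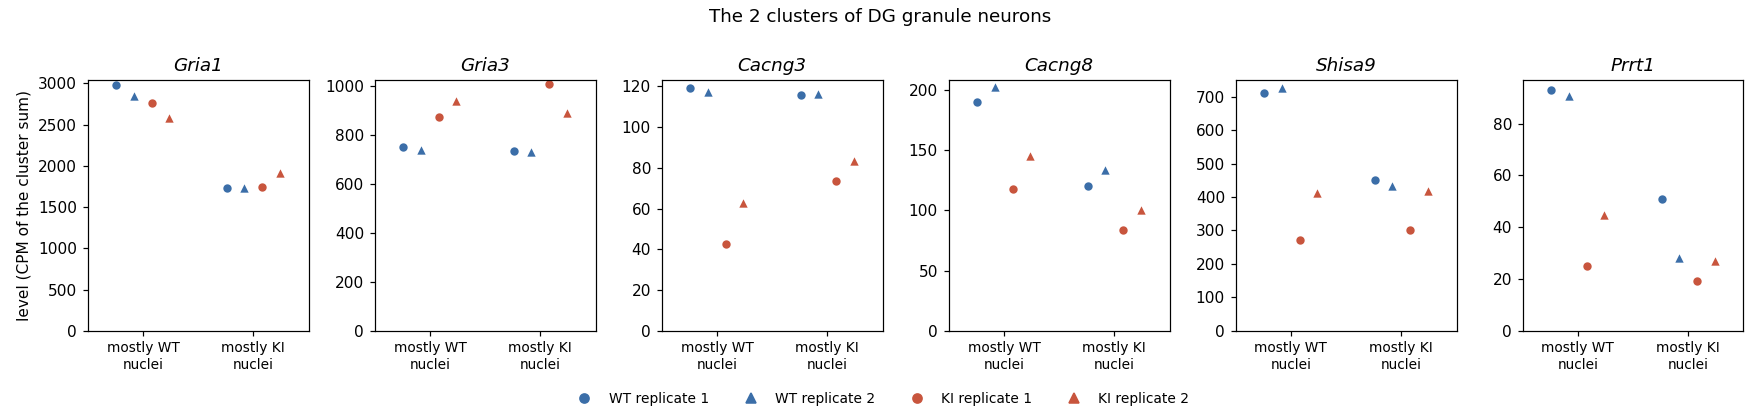
Levels of 6 genes (y axis, CPM of the cluster sum) in the 2 clusters of DG granule neurons, with 1 point per library. Gria1 is at 1730 to 1913 CPM in the cluster of mostly KI nuclei and at 2579 to 2976 CPM in the other, where KI lies below WT, while Gria3 and Cacng3 differ by genotype within both clusters.

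In CA1 pyramidal neurons 2 of 10 genes passed, against 4.11% of 16476 genes, and both fell, against 1.48% of genes that were called lower. Cacng3, with a WT pair of 99.3 and 110.5 CPM, fell to 62.5 and 56.6 CPM (log2 fold change -0.73, SE 0.13, adjusted p = 0.0367), and Prrt1 was the other. Shisa9 gave 158 and 173 CPM for WT, 84.1 and 121 CPM for KI (log2 fold change -0.61, SE 0.15, adjusted p = 0.0687), and Cacng8 gave 190.2 and 181 CPM for WT, 120.2 and 139 CPM for KI (log2 fold change -0.44, SE 0.10, adjusted p = 0.0569). Neither overlapped between genotypes, and neither passed. Gria1 (-0.03 ± 0.12 (SE)), Gria2 (0.06 ± 0.14 (SE)) and Gria3 (-0.12 ± 0.15 (SE)) had log2 fold changes close to 0, and that of Gria4 was -0.33 ± 0.14 (SE). In the larger CA1 cluster alone, an alternative chosen after seeing the data, 3 members passed, as Shisa9 did too, and 7.86% of all genes passed. There Shisa9 had 157 and 166 CPM (WT) and 77.5 and 106 CPM (KI), and Gria4 had 210.2 and 236 CPM (WT) and 158 and 127 CPM (KI). The count of members called was 4 with DESeq2 (6.88% of all genes) and 1 without WT replicate 1 or WT replicate 2, when Prrt1 remained, and 5 without KI replicate 1 or KI replicate 2. In the 4 fits without 1 library, 1.71%, 2.25%, 15.7% and 35.8% of all genes were called. At 2 times the resolution, CA1 nuclei also split by genotype: 1 cluster held 828 and 714 WT nuclei beside 7 and 70 of KI, another 17 and 10 beside 995 and 754, and member levels were not taken within them.

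In CA3 pyramidal neurons 2 of 10 genes passed, Cacng2 and Prrt1, against 2.83% of 15274 genes. Cacng2 had a WT pair of 73.4 and 68.9 CPM and a KI pair of 36.9 and 39.4 CPM (log2 fold change -0.82, SE 0.13, adjusted p = 0.0195), with no overlap. Shisa6, which is highest in this class and in mossy cells, gave 1232 and 1289 CPM for WT, 1230 and 1145 CPM for KI (-0.01 ± 0.09 (SE)). Gria1 (-0.03 ± 0.08 (SE)) and Gria2 (0.22 ± 0.10 (SE)) did not pass. Of all genes called, 64.4% were higher, and 52.0% without TMM scaling. Without WT replicate 1, Prrt1 alone passed (Cacng2 adjusted p = 0.161), without WT replicate 2 neither passed (Cacng2 0.0520 and Prrt1 0.0573, adjusted p), and 3 and 6 members passed without KI replicate 1 and KI replicate 2. Of all genes, 1.31%, 1.86%, 10.5% and 32.6% were called in these 4 fits. The class held 710 nuclei of a smaller cluster with Shisa6 at 1574 to 1678 CPM, where Cacng2 had 38.8 and 35.8 CPM (WT) and 23.7 and 24.2 CPM (KI).

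In inhibitory neurons 2 of 10 genes passed, against 1.43% of 15144 genes. Gria3, with 698 and 758 CPM in the WT libraries, rose to 942 and 1004 CPM (log2 fold change 0.52, SE 0.09, adjusted p = 0.0288), and Prrt1 fell. Among subtypes, both KI values of Gria3 lay above both WT values in Pvalb (1075 and 1079 CPM in WT, 1390 and 1544 in KI), Sst and Cck or Cnr1 neurons. The genotypes overlapped in Lamp5 neurons and in Vip neurons (178 and 220.2 CPM in WT, 172 and 188 in KI). Cacng2 gave 140.3 and 128 CPM for WT, 80.8 and 94.5 CPM for KI, without overlap, and did not pass (log2 fold change -0.51, SE 0.12, adjusted p = 0.0674). Gria4, the subunit that marks this class, had a log2 fold change of 0.09 ± 0.09 (SE). Of all genes called, 67.6% were higher, and 46.5% without TMM scaling. Both calls depended on the clustering. At 2 times its resolution and with another random seed, an alternative chosen after seeing the data, the class took in a further cluster, of 1258 and 1197 nuclei. The 1258 nuclei came unevenly from the libraries, 481 and 76 from WT replicates 1 and 2 and 199 and 502 from KI replicates 1 and 2. No member passed at 2 times the resolution (adjusted p = 0.122 for Prrt1 and 0.154 for Gria3), with 3 genes called in all. None passed with the other seed (0.136 and 0.165), with 2 genes called in all. The count was 1, Prrt1, without WT replicate 1 or WT replicate 2, 4 without KI replicate 1 and 6 without KI replicate 2, with 0.513%, 0.793%, 8.44% and 28.8% of all genes called.

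**Figure D5:**
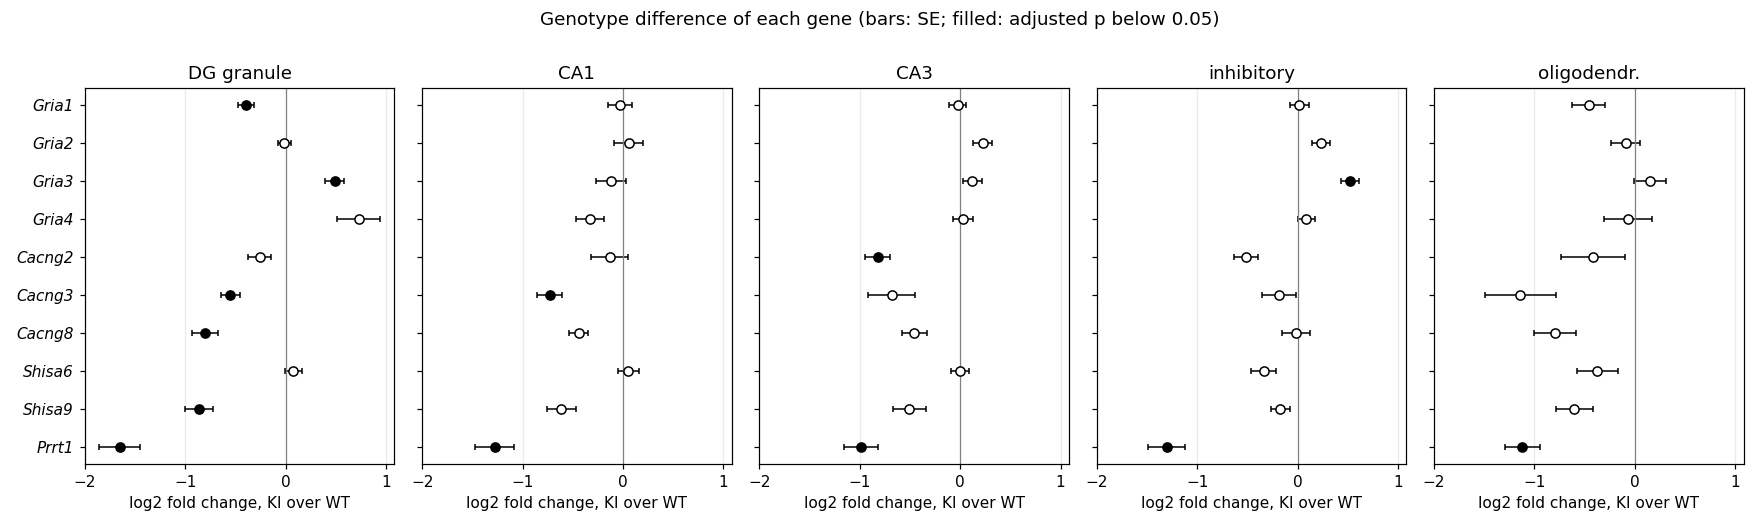
Log2 fold change of KI over WT (x axis) for the 10 genes in 4 neuronal classes and oligodendrocytes, with bars for the SE and filled points for an adjusted p below 0.05. Prrt1 lies farthest left in each neuronal class, from -1.65 in DG granule neurons to -0.99 in CA3 pyramidal neurons, and Gria3 lies right of 0 in DG granule and inhibitory neurons.

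Glial classes held fewer UMIs and fewer calls. In oligodendrocytes Prrt1 was the single member called, 1 of 10 tested, against 0.913% of 12928 genes, and it did not pass without WT replicate 1, without WT replicate 2, with nuclei of at least 1000 genes or with nuclei gated singly (adjusted p up to 0.112). At 2 times the resolution oligodendrocytes split by genotype too, into a cluster of 2049 and 1224 WT and 66 and 453 KI nuclei and another of 16 and 13 WT and 2050 and 404 KI nuclei. Cacng8 gave 45.5 and 39.4 CPM for WT, 21.9 and 25.8 CPM for KI there (adjusted p = 0.114). In OPC 0 of 9 members tested passed, against 0.889% of 9114 genes, and Cacng3 was too low to test. Gria2, which OPC are known to express, gave 2020 and 2011 CPM for WT, 2355 and 2467 CPM for KI (0.36 ± 0.12 (SE), adjusted p = 0.181). In astrocytes 0 of 10 passed, against 0.0377% of 10614 genes, and in microglia 0 of 10 passed, against 0% of 7936 genes. At an unadjusted p under 0.05, edgeR called 3 members in OPC, 2 in astrocytes and 1 in microglia, where 12.4%, 10.7% and 5.66% of all genes had such a p, and DESeq2 called 2, 0 and 0 (1.39%, 1.64% and 0.617% of all genes). After adjustment DESeq2 called 0, but it gave an adjusted p to only 6 members in OPC and 4 in astrocytes, and to all 10 in microglia. Without KI replicate 2, 1 member passed in OPC, 1 in astrocytes and 6 in microglia, where 5.64%, 4.4% and 10.2% of all genes passed.

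Whether a genotype difference varied with cell class was tested for DG granule, CA3 pyramidal and inhibitory neurons against CA1 pyramidal neurons, with the library as a block. Against CA1, 2 of 10 genes differed in DG, where 11.0% of 17344 genes did. Gria4 and Gria3 had higher KI over WT values in DG than in CA1 (differences of 1.02 ± 0.16 (SE), adjusted p = 0.00156, and 0.63 ± 0.10 (SE), adjusted p = 0.00185, on the log2 scale). Prrt1 had a lower one that did not pass (-0.36 ± 0.11 (SE), adjusted p = 0.053). In inhibitory neurons 2 of 10 differed from CA1, against 3.09% of 17298 genes: Gria3 (0.67 ± 0.14 (SE), adjusted p = 0.025) and Shisa9 (0.46 ± 0.11 (SE), adjusted p = 0.0487). Neither of these passed without WT replicate 1 (adjusted p = 0.255 and 0.223), without WT replicate 2 (0.0723 and 0.335) or with another seed of the clustering (0.126 and 0.228). In CA3, edgeR called 0 of 10 different from CA1, against 1.63% of 16920 genes, with 5 at an unadjusted p under 0.05 (12.9% of all genes) and 0 called by DESeq2. The 3 comparisons share the CA1 values. For Prrt1, the difference of inhibitory neurons from CA1 was -0.02 ± 0.14 (SE) and that of CA3 was 0.31 ± 0.11 (SE) (adjusted p = 0.256), so no class was called with a Prrt1 effect of another size than CA1. Without the smaller CA1 cluster this changed, and 5 members differed from CA1 in DG, with Gria1, Cacng8 and Prrt1 all lower, 2 in CA3 (Gria4 and Cacng2, with or without the smaller CA3 cluster) and 3 in inhibitory neurons (Gria4 was the addition), while the share of all genes called rose to 13.9%, 2.93% (3.21% with all of CA3) and 4.87%. Without WT replicate 1, WT replicate 2, KI replicate 1 and KI replicate 2 in turn, the members called were 1, 2, 7 and 7 in DG, 1, 1, 4 and 1 in CA3, and 0, 1, 7 and 3 in inhibitory neurons. Of all genes, 4.93%, 5.02%, 14.7% and 19.7% were called in DG, 1.69%, 2.43%, 3.39% and 3.44% in CA3 and 1.05%, 1.59%, 6.18% and 6.8% in inhibitory neurons.

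The other genes of the AMPA receptor system were read from 5 lists of 53 genes in all, chosen with earlier results of these data known. Of these, 18 passed in at least 1 of the 9 comparisons with WT, beside 10.9% of 21718 genes. Many of all genes were tested in fewer comparisons (21718 over all nuclei, 7936 in microglia). For both reasons nothing is read from this count. Of the 10 other auxiliary subunits, 2 fell and 0 rose over all nuclei, where 0.382% of genes were called lower, with a median log2 fold change of -0.13. Cnih3, a cornichon that modulates AMPA receptors, fell to 38.4 and 44.4 CPM, where WT had 81.2 and 83.2 CPM (log2 fold change -0.94, SE 0.10, adjusted p = 0.0368), and in DG granule neurons 63.5 and 82.6 CPM in KI stood against 152 and 151 CPM in WT (log2 fold change -0.93, SE 0.13, adjusted p = 0.0107). Shisa7 fell to 32.4 and 38.2 CPM, where WT had 60.8 and 61.5 CPM (log2 fold change -0.74, SE 0.10, adjusted p = 0.048), and both genes also fell in CA1 pyramidal and inhibitory neurons. In inhibitory neurons neither passed at 2 times the resolution (adjusted p = 0.172 for Cnih3 and 0.283 for Shisa7), with another seed of the clustering (0.197 and 0.296) or without WT replicate 1 (0.163 and 0.328). In CA1 neither passed without WT replicate 1 or WT replicate 2, and over all nuclei Shisa7 did not (0.124 and 0.112) while Cnih3 did. Of the 15 listed genes called in DG granule neurons, 0 passed without WT replicate 1 or WT replicate 2. In DG granule neurons the list split, with 2 lower and 3 higher of 10 (4.77% and 4.66% of all genes): Syndig1, a relative of Prrt1, rose to 104 and 137 CPM where WT had 65.4 and 60.2 CPM (log2 fold change 1.07, SE 0.14, adjusted p = 0.00927), Shisa8 rose (log2 fold change 2.62, SE 0.36, adjusted p = 0.0107) and so did Gsg1l (log2 fold change 0.97, SE 0.22, adjusted p = 0.0464). In OPC, Gsg1l fell instead (log2 fold change -1.98, SE 0.43, adjusted p = 0.0204), and that difference between classes was not tested. The OPC call was lost without WT replicate 1 (adjusted p = 0.922), WT replicate 2 (0.0621) or KI replicate 1 (0.0608) and at 2 times the resolution (0.972).

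Of the 20 scaffold and trafficking genes, 2 fell over all nuclei and 0 rose, against the 0.382% of genes called lower. Arc, an activity-regulated gene that promotes removal of AMPA receptors from the surface, fell to 1.93 and 2.07 CPM, against 8.98 and 10.1 CPM in WT (log2 fold change -2.20, SE 0.17, adjusted p = 0.0368). Homer1, a scaffold of the postsynaptic density, fell to 105 and 109 CPM, against 199 and 195 CPM in WT (log2 fold change -0.84, SE 0.08, adjusted p = 0.0368). Both were called over all nuclei and in CA1 without any 1 library, whereas without WT replicate 1 or WT replicate 2 the Homer1 call in CA3 was lost (adjusted p = 0.363 and 0.305). Both fell in DG granule, CA1 and CA3 pyramidal neurons, with the lowest log2 fold changes in CA1. There Homer1 had 352 and 316 CPM (WT) and 136 and 132 CPM (KI, log2 fold change -1.23, SE 0.11, adjusted p = 0.00783). Arc had 17.0 and 22.0 CPM (WT) and 2.04 and 3.34 CPM (KI, log2 fold change -2.78, SE 0.25, adjusted p = 0.00783). By edgeR's test of the class-by-genotype term, DG granule and CA3 pyramidal neurons were called different from CA1 for Homer1 and not for Arc. In DG granule neurons 5 of 19 tested fell and 1 rose, against 4.77% and 4.66% of all genes: Camk2a, the kinase subunit, fell to 930.3 and 917 CPM, against 1480 and 1480 CPM in WT (log2 fold change -0.55, SE 0.08, adjusted p = 0.0114), and Grip1, which binds the tails of GluA2 and GluA3, rose (log2 fold change 0.68, SE 0.09, adjusted p = 0.00963).

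Of the 12 extracellular partners, 0 passed over all nuclei by edgeR (3 at an unadjusted p under 0.05, a share close to the 24.3% of all genes), while 4 rose and 0 fell in DG granule neurons, where 4.66% of genes were called higher. C1ql2, a marker used to name DG granule neurons, is among the 4. Nptx2, a neuronal pentraxin that clusters AMPA receptors, rose to 10.2 and 13.3 CPM where WT had 3.28 and 4.26 CPM (log2 fold change 1.77, SE 0.23, adjusted p = 0.00934). Olfm3, an olfactomedin, had 40.5 and 35.4 CPM (WT) and 51.0 and 61.3 CPM (KI, log2 fold change 0.69, SE 0.13, adjusted p = 0.0277), and Olfm2, of the same family, rose too. The median log2 fold change of this list in DG granule neurons was 0.33, beside 0.00 for all genes. Of the 8 genes for assembly in the endoplasmic reticulum, edgeR called 0 in each of the 9 comparisons, with at most 3 at an unadjusted p under 0.05 (3 over all nuclei, in DG granule and in inhibitory neurons, where 24.3%, 29.1% and 19.8% of all genes had one). Of the 3 RNA editing genes, Adarb2, which has no known editing activity, rose in OPC (log2 fold change 0.89, SE 0.13, adjusted p = 0.00042). That call was lost without WT replicate 1 and at 2 times the resolution (adjusted p = 0.790), where 0 genes in all passed. At that resolution the 1090 OPC nuclei were joined by a cluster of 1167 nuclei, 636 of them from KI replicate 2. That cluster had a median doublet score of 0.146 and a median of 6092 UMIs, against 0.0113 and 2200.5 for the 1090 nuclei. In OPC the sum of inhibitory neuron markers went from 5138 and 5298 CPM (WT) to 5706 and 5803 CPM (KI), and that of DG granule markers from 714 and 791 CPM (WT) to 527 and 655 CPM (KI), and their part in these differences was not tested. Of the editing genes 0 passed in the neuronal classes, where 1 had an unadjusted p under 0.05, in DG granule neurons.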

How the data were processed

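Frozen hippocampi of 2 WT and 2 KI mice were profiled by 10x 3′ single-nucleus RNA sequencing, with 1 library per mouse and the same batch label for all. The deposited values are raw UMI counts per gene and nucleus, which the authors made with Cell Ranger 7.0.1 on mm10; the annotation release, the use of intronic reads and the strand setting are not given in the sources used here. Of the gene IDs, 32235 of 32285 were found in GENCODE M21, from which positions were taken.

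Nuclei with at least 500 genes, at most 5% mitochondrial UMIs and a doublet score of at most 0.25 were kept (345 and 3262 barcodes removed). They were clustered with scanpy 1.11.5 and leidenalg 0.10.2 (2000 variable genes without the members and listed genes, 30 components, resolution 0.5) and named from at least 3 raised markers. UMIs were summed per library and class, so the mouse is the replicate, and tested with edgeR 4.0.16 (quasi-likelihood, filterByExpr, TMM, R 4.3.3), with Benjamini-Hochberg adjustment over all genes of a comparison and a threshold of 0.05. SE is the log2 fold change divided by the root of F. The code was checked on simulated counts. DESeq2 1.42.0, other filters, scalings, classes, another clustering seed and each library left out were alternatives.

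The members and lists were chosen with earlier results of these data known, and so were the limits for naming clusters. The 12 listed genes named are those with the smallest adjusted p below 0.05 in the 9 comparisons with WT; the members called and the neighbours of Prrt1 are described throughout. C1ql2 and Olfm2 were named after their values were seen. The E box, CCAAT, TATA and AP-1 motifs were added after the first searches found no match. Precision rests on 4 libraries of similar depth and on the UMIs of each class.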

Additional observations from a re-analysis of the deposited data

Results flagged for a closer look

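The genotype difference of 4 gene and class pairs differed from that in CA1 pyramidal neurons by edgeR's test of the class-by-genotype term, and each is given here on the log2 scale as the class minus CA1. In DG granule neurons, Gria4 differed by 1.02 and Gria3 by 0.63. In inhibitory neurons, Gria3 differed by 0.67 and Shisa9 by 0.46. Gria3 was called against CA1 in both classes, which share the CA1 values, and was itself higher in KI in both. With the larger CA1 cluster alone the same 4 values were 1.24, 0.60, 0.66 and 0.57, and all 4 passed. The pair in inhibitory neurons did not pass with another seed of the clustering, without WT replicate 1 or without WT replicate 2. In DG granule neurons the Gria3 difference did not pass without WT replicate 1. In fits without any 1 library it stayed at 0.50 to 0.73, and that of Gria4 at 0.71 to 1.29.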

How the results depend on the processing

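The direction of all 18 called member values held under every alternative run, and 180 of 195 alternatives other than leaving out a library kept the call while 15 lost it. Without 1 library, 47 of 72 fits kept it and 25 lost it. The cause of the changes given here was not tested. With 2 libraries per genotype, values rest on few mice. A fit without 1 library takes its spread from the genotype that keeps 2. The KI pair differed more than the WT pair over all nuclei (SD over genes of the log2 difference 0.2925 and 0.1534) and in each class compared. Calls and counts without 1 library therefore do not single out a mouse. The classes moved with the clustering, so another random seed and the largest CA1 and CA3 clusters alone were added after seeing the data, the CA1 cluster also on its own. The counts of members called below are to be read beside the share of all genes called, and nothing is read from them. Of all genes, 0.889% were called over all nuclei in the main test, 9.62% with DESeq2 and 2.5% with no low-count filter. In CA1 pyramidal neurons these shares were 4.11%, 6.88% and 4.47%.

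Over all nuclei 1 member was called, 4 with DESeq2, 3 with no low-count filter, and 1 to 5 without 1 library. The count was 6 in DG granule neurons (1 to 8 without 1 library). It was 2 in CA1 pyramidal neurons, 4 with DESeq2, 4 with no filter, 4 with no doublet removal, and 1 to 5 without 1 library. It was 2 in CA3 pyramidal neurons, 5 with no filter, and 0 to 6 without 1 library. It was 2 in inhibitory neurons, 0 at 2 times the resolution, 0 with another seed, and 1 to 6 without 1 library. It was 1 in oligodendrocytes, 3 with no filter, 0 with nuclei of at least 1000 genes, 0 with nuclei gated singly, and 0 to 7 without 1 library. It was 0 in astrocytes (0 to 1), OPC (0 to 1) and microglia (0 to 6). For the difference from CA1, DG granule neurons had 2 (5 with no filter, 5 without TMM scaling, 4 with gated nuclei, 4 at 2 times the resolution, 5 with the largest clusters, 1 to 7 without 1 library). CA3 pyramidal neurons had 0 (2 with no filter, 1 with no doublet removal, 2 at 2 times the resolution, 1 with another seed, 2 with the largest clusters, 2 with the largest CA1 cluster and all of CA3, 1 to 4 without 1 library). Inhibitory neurons had 2 (6 with no filter, 1 each with DESeq2, without TMM scaling, with nuclei of at least 1000 genes, with no doublet removal and with gated nuclei, 0 with another seed, 0 to 7 without 1 library). The class with the highest level was the same for 9 or 10 of 10 members in the 4 alternatives run.

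The replicate numbers were not shown to pair the libraries, since deviations of same-numbered libraries correlated by 0.0863 over all nuclei and by -0.18 to 0.0439 in the classes. With a replicate block, 4 members were called over all nuclei, 7 in DG granule, 4 in CA1 and 5 in CA3 pyramidal and 3 in inhibitory neurons, 1 in oligodendrocytes and 0 in the other glia. In microglia, where the correlation was lowest, a crossed pairing, chosen after seeing the data, called 0 members and 58 genes.

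Counts over all genes moved by over 1.5 times as follows. DESeq2 called 1879 over all nuclei (193 in the main test), 1081 in CA1 pyramidal neurons (677), 32 in astrocytes (4), 18 in OPC (81), where it gave an adjusted p to 1038 and 1363 genes, 1 in microglia (0), and 816, 79 and 169 for the differences of DG granule, CA3 and inhibitory neurons (1907, 275 and 534). With no low-count filter the counts were 708 over all nuclei, 3389 in DG granule (1547), 1147 in CA1, 1825 in CA3 (433) and 1052 in inhibitory neurons (216), 192 in astrocytes, 819 in oligodendrocytes (118), 159 in OPC, 49 in microglia, and 723 and 1069 for CA3 and inhibitory neurons against CA1. The block gave 1955 over all nuclei, 2792 in DG granule, 1949 in CA1, 1422 in CA3 and 776 in inhibitory neurons, 2 in astrocytes, 74 in oligodendrocytes and 25 in OPC. At 2 times the resolution there were 1242 in CA1, 3 in inhibitory neurons, 0 in OPC, and 548 for CA3 against CA1. Another seed gave 2 in inhibitory neurons, 17 in astrocytes, and 164 for inhibitory neurons against CA1. The largest clusters gave 1268 in CA1, and 485 and 827 for CA3 (539 with all of CA3) and inhibitory neurons against CA1. Gated nuclei gave 58 in astrocytes, 8 in oligodendrocytes and 27 in OPC. Nuclei of at least 1000 genes gave 1 in astrocytes and 52 in oligodendrocytes. No doublet removal gave 133 in inhibitory neurons and 0 in astrocytes, and no TMM scaling gave 2 in astrocytes. Thinning to equal depth gave 429 in inhibitory neurons and 37 in astrocytes, and leaving out subicular, cortical and unnamed nuclei gave 416 over all nuclei. Of the genes called in OPC, 67.9% were higher in KI, and 44.3% without TMM scaling, and for DG against CA1 the values were 48.2% and 37.0%. Without 1 library the counts ran from 115 to 7196 over all nuclei, 214 to 7720 in DG granule, 294 to 6107 in CA1, 209 to 5194 in CA3 and 83 to 4522 in inhibitory neurons, 1 to 537 in astrocytes, 107 to 2862 in oligodendrocytes, 0 to 569 in OPC, 0 to 930 in microglia, and 884 to 3531, 295 to 599 and 188 to 1211 for the differences of DG granule, CA3 and inhibitory neurons from CA1. In each, the highest was without KI replicate 2.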
